A study of Homo sapiens with 8 samples.

Results

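The genes described here run glucose metabolism and the response to low oxygen: glucose transporters, the enzymes of glycolysis, lactate dehydrogenases, the kinases of pyruvate dehydrogenase, the bifunctional PFKFB enzymes, the pentose phosphate pathway, the hypoxia-inducible factors (HIF) with their prolyl hydroxylases, and 4 HIF target genes. The list holds 42 genes, chosen by function. Of these, 39 were measured, out of 19775 genes in all, and SLC16A1, SLC16A3 and CA9 were not analysed here for want of a probe set annotated to them alone. Cells of the human line MDA-MB-231, derived from a basal-like breast cancer, received an siRNA directed at HMGA1 (siHMGA1, 4 arrays) or a control siRNA (siCTRL, 4 arrays). HMGA1 is a small chromatin protein that bends and opens DNA at AT-rich stretches. RNA was taken 72 h later and hybridised to Affymetrix arrays, and no other treatment or oxygen level is named in the labels. The arrays of a group are called biological replicates, but how the cultures were kept apart is not described, so p-values measure only the spread between these arrays. As the series has a single HMGA1 siRNA group, off-target effects of this siRNA and loss of HMGA1 cannot be told apart.

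Glycolysis splits glucose into pyruvate, which lactate dehydrogenase reduces to lactate or pyruvate dehydrogenase breaks down inside mitochondria. The pentose phosphate pathway diverts glucose phosphate to NADPH and ribose. Many steps are carried out by isozymes from separate genes. In low oxygen, HIF alpha subunits escape the prolyl hydroxylases that otherwise mark them for destruction, pair with ARNT and bind a short DNA core in the promoters and enhancers of glycolytic and angiogenic genes. Much of this control acts on protein, and the arrays measured RNA only. Breast cancer cells of the basal-like kind are known for high glucose uptake and lactate output.

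Values are log2 probe set signals, so that a difference of 1 is a doubling of the signal, and a gene was called when its adjusted p from limma was under 0.05 over all genes. HMGA1 itself fell by 2.42, to a fold of 0.187 (adjusted p = 2.46e-08 from limma, standard error 0.0956). The arrays read 12.62, 12.84, 12.69 and 12.85 in siCTRL and 10.11, 10.37, 10.29 and 10.57 in siHMGA1. A second, dimmer HMGA1 probe set, with a mean of 7.79, fell less, by 0.90 (limma adjusted p = 0.00107, from a fit of every probe set). The line's 5 mesenchymal markers were bright, with VIM at a mean of 14.69 in siCTRL and 14.53 in siHMGA1. CD44 was at 12.36 and 12.44, EGFR at 11.67 and 11.99, CAV1 at 13.88 and 13.73, and AXL at 13.64 and 13.83. VIM was called lower, EGFR and AXL were called higher, and CD44 and CAV1 were not called. Of the 5 luminal markers, PGR (3.98 and 4.02), CDH1 (4.72 and 4.96) and ESR1 (6.51 and 6.42) were dim, GATA3 was at 9.81 and 9.76, and ERBB3 rose from 7.40 to 8.71, or 2.49-fold (adjusted p = 6.22e-08 from limma). Of the 3 leukocyte markers measured, 1 was called (PTPRC, 4.67 and 5.17), as were 0 of the 5 endothelial and stromal markers. Arrays correlated at 0.9949 to 0.9982 within groups and at 0.9888 to 0.9924 between them.

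The arrays differed in the gap between 3' and 5' signals, a common gauge of RNA integrity. For the ACTB control probe sets, the 3' signal exceeded the 5' signal by 4.11, 3.34, 3.96 and 3.38 in siCTRL and by 3.22, 3.04, 3.18 and 3.19 in siHMGA1, and the groups did not overlap. For GAPDH the same difference was 0.70 to 1.34 in siCTRL and 0.63 to 0.70 in siHMGA1, with overlap. siCTRL replicates 1 and 3 stood highest in both. Each call below was therefore also made without these 2 arrays and with the ACTB difference as a covariate, alternatives that were chosen after the data had been seen. Because the ACTB difference did not overlap between the groups, the covariate fit cannot fully separate it from the siRNA. Calls gained or lost in that fit are therefore not calls corrected for RNA integrity. What RNA integrity contributes to the differences between the groups was not tested beyond these fits.

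Of the 39 genes, 18 were called: 13 were lower and 5 were higher after HMGA1 silencing. Over all 19775 genes, 30.5% were called, 14.7% lower and 15.8% higher. The median log2 fold change was -0.10 for the 39 genes and 0.01 for all genes, and the median size was 0.19 against 0.12. Most of the called changes were small. A change of at least 0.5 was reached by 3 higher genes, ADM, PFKFB2 and SLC2A3, and by 2 lower ones, EPAS1 and ENO2, where 3.92% of all genes rose and 6.05% fell by that much. On these representative probe sets, the brightest of each gene, none of the 39 genes (0) passed the study's stricter thresholds of an adjusted p under 1e-04 with a log2 fold change beyond 1.4, which 0.627% of all genes passed. A second probe set of PFKFB2 did pass them, at 1.58 (limma adjusted p = 5.6e-07, from a fit of every probe set). The lowest array of one group lay above the highest array of the other in 20 of the 39 genes, and in 32.6% of all genes. The balance of directions depended on which scaling of the arrays was used. With cyclic loess scaling no call was lost, and PGK1 was called lower as well (-0.16, adjusted p = 0.0299 from limma). With every array centred on the mean of 7 housekeeping genes, whose mean log2 fold change was -0.12, the median of all genes moved to 0.13 and the counts became 6 lower and 10 higher. Of these 7 genes, TBP (-0.64) and HPRT1 (-0.34) were themselves called lower, YWHAZ (0.18) was called higher, and 4 were not called. Counts under an alternative are given here and below without the share of all genes called in that setting. They describe how the calls moved and are not set against a background.

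**Figure D1:**
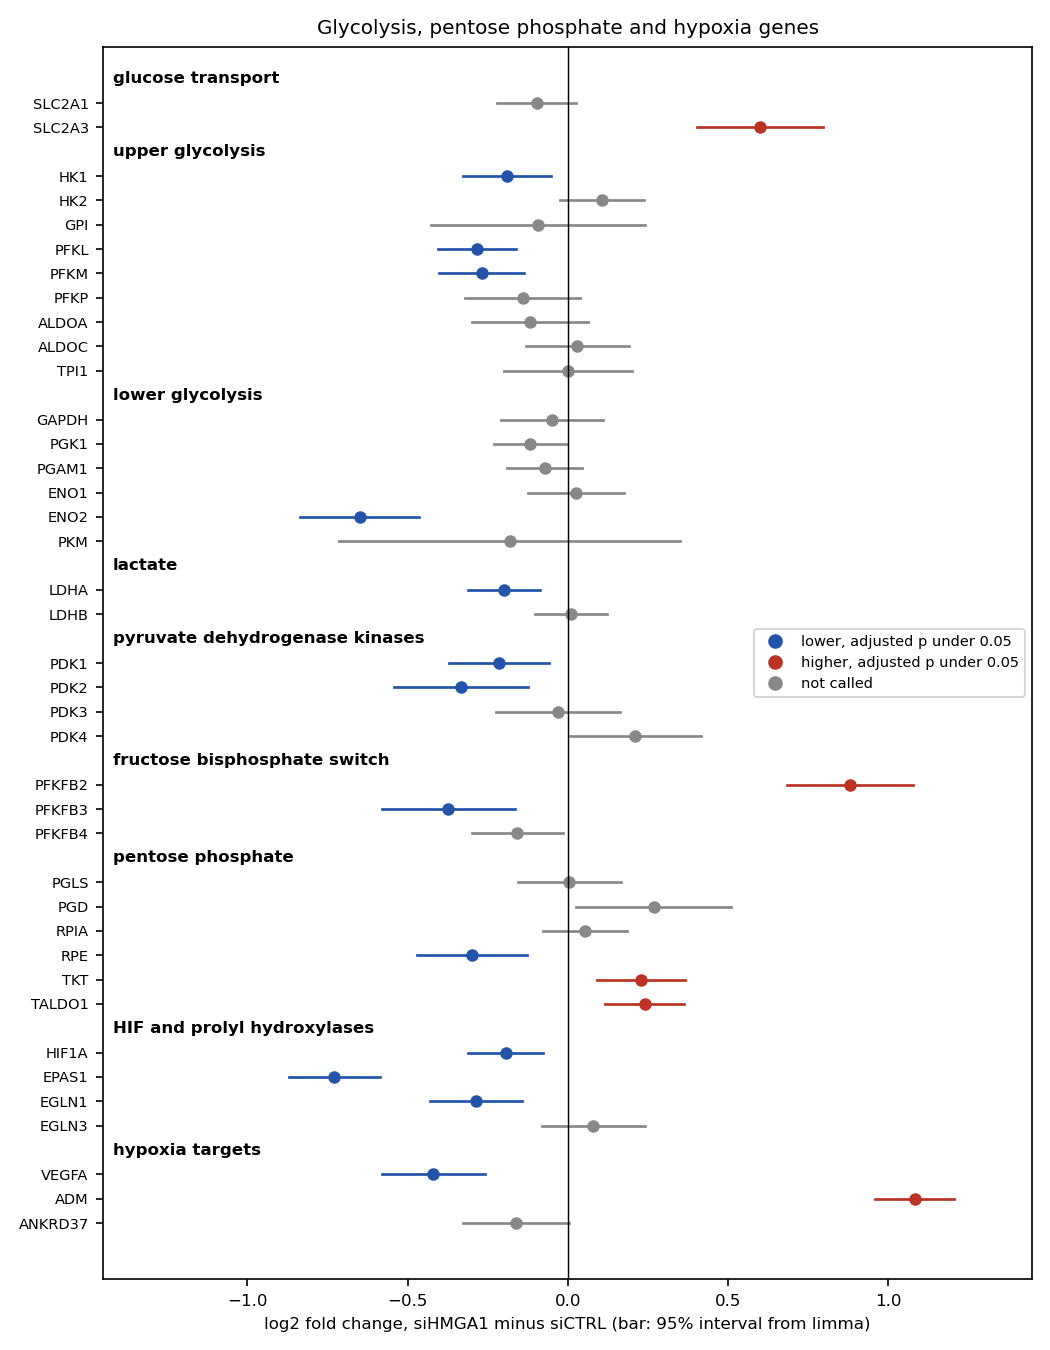
Log2 fold change (siHMGA1 minus siCTRL, x axis) of each of the 39 genes, grouped by role, with 95% intervals from limma as bars. Blue points were called lower and red points higher at an adjusted p under 0.05, and grey points were not called; ADM lies farthest right at 1.08 and EPAS1 farthest left at -0.73.

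ADM, which encodes the vasodilator peptide adrenomedullin and is a HIF target, had the largest change of the list on the representative probe sets. Its log2 signal was 11.71, 11.86, 11.80 and 11.82 in siCTRL and 12.87, 12.92, 12.85 and 12.89 in siHMGA1. Every siHMGA1 array lay about 1 above every siCTRL array, and the spread within each group was small. With means of 11.80 ± 0.0623 and 12.88 ± 0.0287 (SD, n = 4 each), ADM rose by 1.08, or 2.12-fold (standard error 0.0561, adjusted p = 1.31e-07 from limma). VEGFA, the angiogenic growth factor and another HIF target, moved the opposite way. VEGFA read 11.89, 12.06, 12.02 and 11.86 in siCTRL and 11.38, 11.55, 11.60 and 11.62 in siHMGA1. The groups did not overlap, and VEGFA fell by 0.42, to a fold of 0.748 (standard error 0.0733, adjusted p = 9.36e-04 from limma). Its other 3 probe sets differed by -0.23, -0.13 and -0.03 and were not called. ANKRD37, an ankyrin repeat gene induced in low oxygen, differed by -0.16 (adjusted p = 0.141 from limma).

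EPAS1, the HIF alpha subunit first known from endothelium, had the largest fall. EPAS1 read 11.94, 11.89, 11.93 and 11.78 in siCTRL and 11.05, 11.15, 11.26 and 11.15 in siHMGA1. The highest siHMGA1 array was well under the lowest siCTRL array. The means were 11.88 ± 0.0743 and 11.15 ± 0.0848 (SD, n = 4 each), and EPAS1 fell by 0.73, to a fold of 0.603 (adjusted p = 5.89e-06 from limma, standard error 0.0649). The other 2 EPAS1 probe sets had means of 4.93 and 3.57, near the background of the arrays, and differed by -0.02 and -0.09. HIF1A, the alpha subunit found in nearly all tissues, fell by 0.19 (adjusted p = 0.0165 from limma), from 13.92 to 14.03 in siCTRL to 13.75 to 13.79 in siHMGA1. The HIF1A call was lost without siCTRL replicates 1 and 3 (-0.15, adjusted p = 0.0662 from limma), with the ACTB covariate (-0.14, adjusted p = 0.162) and after housekeeping centring (-0.08, adjusted p = 0.275).

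Of the prolyl hydroxylases, EGLN1, the main oxygen sensor of the family, fell by 0.29 (adjusted p = 0.0055 from limma). Its log2 signal was 11.14 to 11.34 in siCTRL and 10.84 to 11.02 in siHMGA1, and a second probe set fell by 0.40. With the ACTB covariate the EGLN1 difference was -0.18 (adjusted p = 0.135 from limma). EGLN3, itself induced by HIF in many cells, differed by 0.08 (adjusted p = 0.48 from limma) with overlapping groups at 6.40 to 6.73. In the HIF and hydroxylase group, 3 of the 4 genes were called, each of them lower, where 14.7% of all genes were lower, and with the ACTB covariate EPAS1 alone kept its call.

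The promoters of the HIF and HIF target genes that changed by at least 0.5, EPAS1 and ADM, are shown because HIF binds a core motif written ACGTG or GCGTG, and that of ENO2 was added after its values had been seen. Each window runs from 250 bases before to 50 after the annotated start (RefSeq, GRCh38.p14), 5′ to 3′ on the strand of the gene, with matches to the core on either strand in capitals.
EPAS1 (chr2:46297157-46297456, plus strand): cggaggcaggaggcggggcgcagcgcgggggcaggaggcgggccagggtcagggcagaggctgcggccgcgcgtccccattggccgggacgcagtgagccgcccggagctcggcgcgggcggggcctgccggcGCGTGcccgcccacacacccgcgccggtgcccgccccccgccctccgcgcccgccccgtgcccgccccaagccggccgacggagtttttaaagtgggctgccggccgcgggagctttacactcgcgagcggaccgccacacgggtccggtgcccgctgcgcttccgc
ADM (chr11:10304823-10305122, plus strand): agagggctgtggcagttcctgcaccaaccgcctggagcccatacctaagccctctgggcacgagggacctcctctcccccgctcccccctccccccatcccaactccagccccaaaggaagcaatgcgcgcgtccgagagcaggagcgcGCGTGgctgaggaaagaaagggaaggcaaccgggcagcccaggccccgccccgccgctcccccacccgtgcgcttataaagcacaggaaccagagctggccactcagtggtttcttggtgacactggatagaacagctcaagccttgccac
ENO2 (chr12:6914330-6914629, plus strand): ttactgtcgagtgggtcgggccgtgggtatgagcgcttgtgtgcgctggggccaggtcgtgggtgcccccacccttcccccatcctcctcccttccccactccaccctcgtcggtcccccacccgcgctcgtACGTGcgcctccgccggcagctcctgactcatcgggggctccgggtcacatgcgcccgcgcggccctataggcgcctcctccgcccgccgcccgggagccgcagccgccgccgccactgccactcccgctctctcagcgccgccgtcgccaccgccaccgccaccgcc
Each window held a single match, GCGTG at -117 in EPAS1, GCGTG at -101 in ADM and ACGTG at -118 in ENO2, counted from the start site. EPAS1 and ENO2, which fell, and ADM, which rose, thus all carry the core in these windows. Such a match is common: 48.4% of the 35116 promoters in the table held ACGTG or GCGTG on either strand. Of the 61 promoters that matched 36 of the 39 genes, 37 held one (60.7%), and 3 genes, VEGFA, SLC2A3 and PFKFB2, were named only. The window is A+T-poor in all 3 promoters shown, with 20% in EPAS1, 35% in ADM and 25% in ENO2, against a median of 41.3% over the table.

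**Figure D2:**
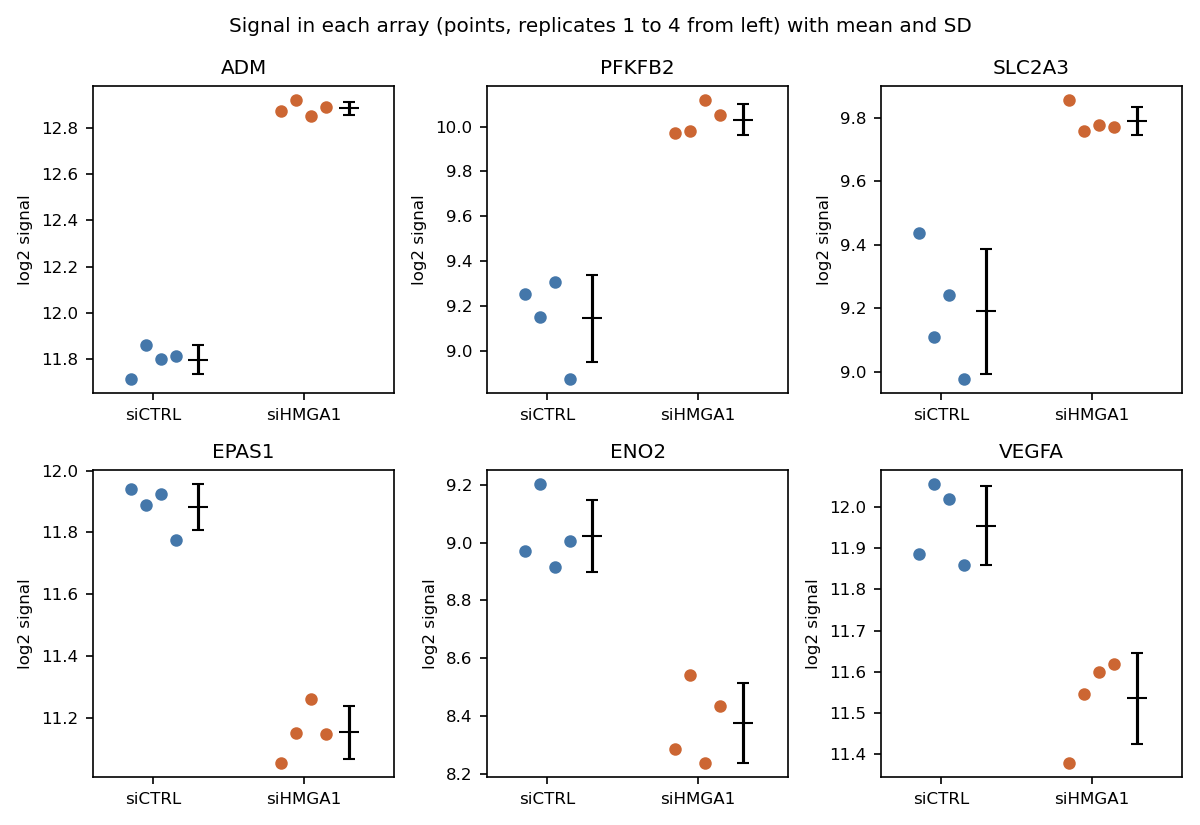
Log2 signal (y axis, a separate range in each panel) of ADM, PFKFB2, SLC2A3, EPAS1, ENO2 and VEGFA in the 4 siCTRL arrays (blue) and the 4 siHMGA1 arrays (orange), with the mean and SD as black bars. The groups do not overlap in any of the 6 panels; ADM, PFKFB2 and SLC2A3 are higher and EPAS1, ENO2 and VEGFA lower in siHMGA1.

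The 2 glucose transporters measured did not move alike. SLC2A3, the high-affinity transporter best known from neurons, had a log2 signal of 9.44, 9.11, 9.24 and 8.98 in siCTRL and 9.86, 9.76, 9.78 and 9.77 in siHMGA1. All siHMGA1 arrays lay above all siCTRL arrays, which scattered more (SD 0.197 against 0.0449, n = 4 in each group). SLC2A3 rose by 0.60, or 1.52-fold (standard error 0.0891, adjusted p = 2.88e-04 from limma). Its dimmer probe sets rose less, by 0.37 (limma adjusted p = 0.00376) and by 0.18, which was not called (limma adjusted p = 0.106). SLC2A1, the basal transporter of most cells, had a log2 signal of 11.16 to 11.27 in siCTRL and 11.10 to 11.18 in siHMGA1, a difference of -0.10 with a 95% interval of -0.22 to 0.03 (adjusted p = 0.241 from limma). The log2 ratio of SLC2A1 to SLC2A3 within an array was 1.81 to 2.28 in siCTRL and 1.24 to 1.42 in siHMGA1.

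In upper glycolysis, 3 of 9 genes were lower and none (0) was higher, where 14.7% of all genes were lower and 15.8% higher. HK1, the hexokinase of most tissues that traps glucose as its phosphate, fell by 0.19 (adjusted p = 0.0397 from limma). HK2, the inducible hexokinase, had a difference of 0.11 (adjusted p = 0.221 from limma), and its dimmer probe sets differed by -0.22 and -0.17. The HK1 call was close to the threshold and was lost in 10 of 20 alternatives, among them leaving out siCTRL replicate 2, 3 or 4 or siHMGA1 replicate 1, 3 or 4 (adjusted p = 0.0594 to 0.106 from limma). Of the phosphofructokinases, which commit the sugar to glycolysis, the liver isozyme PFKL fell by 0.28 (7.82 to 7.86 in siHMGA1 against 8.05 to 8.19, adjusted p = 0.00201 from limma). A second PFKL probe set, with a mean of 7.49, differed by -0.16 with overlapping groups and was not called (limma adjusted p = 0.138). The muscle isozyme PFKM fell by 0.27 (9.66 to 9.80 against 9.90 to 10.08, adjusted p = 0.00499 from limma), but was not called with the ACTB covariate (-0.18, adjusted p = 0.104 from limma) or after housekeeping centring (-0.15, adjusted p = 0.0626). The platelet isozyme PFKP differed by -0.14, and siCTRL, at 11.26 to 11.63, overlapped siHMGA1, at 11.27 to 11.38. Without siCTRL replicates 1 and 3, PFKP was called lower (-0.28, adjusted p = 0.00882 from limma). The isomerase GPI (-0.09), the aldolases ALDOA (-0.12) and ALDOC (0.03) and the triose phosphate isomerase TPI1 (0.00) were not called.

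In lower glycolysis, which yields ATP, 1 of 6 genes was called, where 30.5% of all genes were called. ENO2, the enolase named for neurons, had a log2 signal of 8.97, 9.20, 8.91 and 9.004 in siCTRL and 8.28, 8.54, 8.24 and 8.43 in siHMGA1. The groups were clearly apart, and ENO2 fell by 0.65, to a fold of 0.638 (standard error 0.0846, adjusted p = 1.12e-04 from limma). ENO1, the enolase of most tissues, differed by 0.03 with overlapping groups, though a second ENO1 probe set was called higher, by 0.58. GAPDH, which the study used as its internal control for real-time PCR, had a log2 signal of 14.24 to 14.54 in siCTRL and 14.30 to 14.44 in siHMGA1, a difference of -0.05 with a 95% interval of -0.21 to 0.11 (adjusted p = 0.691 from limma). PGK1, the first ATP-yielding kinase of the pathway, was at 13.98 to 14.01 in siCTRL and 13.86 to 13.90 in siHMGA1. The PGK1 groups did not overlap, but the difference of -0.12 did not pass (adjusted p = 0.114 from limma). The mutase PGAM1 had groups apart as well, with a difference of -0.07 (adjusted p = 0.365 from limma).

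PKM, which makes pyruvate, scattered more than any other gene of the list. Its log2 signal was 11.03, 12.10, 11.56 and 11.85 in siCTRL and 11.04, 11.92, 11.08 and 11.78 in siHMGA1, a difference of -0.18 with a 95% interval of -0.71 to 0.35. Replicates 1 and 3 were below replicates 2 and 4 in both groups. GPI had the same order, at 10.66 to 11.34 in siCTRL and 10.72 to 11.19 in siHMGA1, and so did TPI1, at 12.87 to 13.31 and 13.04 to 13.21. The 5' ACTB control probe set followed this order too, with 10.31, 11.29, 10.62 and 11.21 in siCTRL and 11.25, 11.59, 11.38 and 11.43 in siHMGA1. With the ACTB difference as a covariate, PKM (-0.83, adjusted p = 0.041 from limma), GPI (-0.53), ALDOA (-0.30), PFKP (-0.37) and GAPDH (-0.23) were called lower. Without siCTRL replicates 1 and 3, only PFKP of these 5 was. Since the covariate did not overlap between the groups, these 5 calls cannot be read as corrected for RNA integrity.

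**Figure D3:**
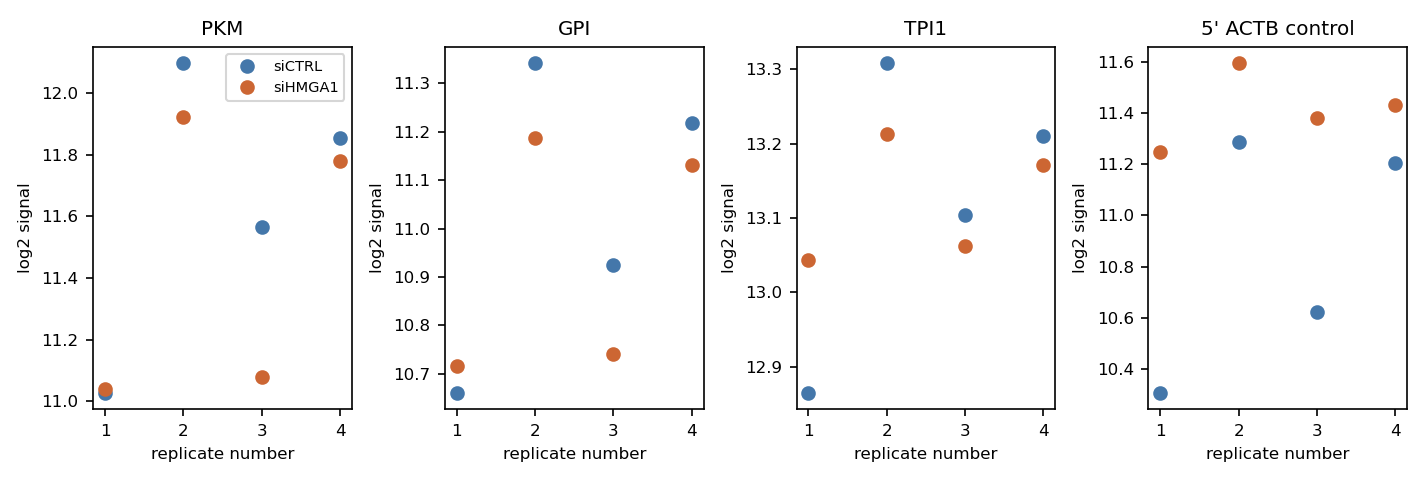
Log2 signal (y axis, a separate range in each panel) by replicate number (x axis) for PKM, GPI, TPI1 and the 5' ACTB control probe set, siCTRL in blue and siHMGA1 in orange. Replicates 1 and 3 lie below replicates 2 and 4 within each group in all 4 panels; the replicate number is a name and has no order.

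At the end of the pathway, LDHA, which favours lactate production and is a HIF target, fell by 0.20, to a fold of 0.871 (standard error 0.0513, adjusted p = 0.011 from limma). LDHA read 14.54, 14.60, 14.59 and 14.59 in siCTRL and 14.39, 14.37, 14.39 and 14.38 in siHMGA1. The change was small, but both groups were tight and did not overlap. LDHB, whose subunit favours the return of lactate to pyruvate, was at 14.001 to 14.06 in siCTRL and 14.04 to 14.05 in siHMGA1, a difference of 0.01 with a 95% interval of -0.10 to 0.12. After housekeeping centring, LDHA differed by -0.08 (adjusted p = 0.243 from limma).

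The pyruvate dehydrogenase kinases switch off pyruvate dehydrogenase, and with it the use of pyruvate inside mitochondria by this enzyme. PDK2, found in most tissues, fell by 0.33 (adjusted p = 0.0189 from limma), from 7.70 to 8.01 in siCTRL to 7.31 to 7.69 in siHMGA1, and its second probe set fell by 0.27. The PDK2 call was lost in 5 of 19 alternatives. Among these were leaving out siCTRL replicate 2 or siHMGA1 replicate 1 or 3 (adjusted p = 0.053 to 0.0603 from limma). The others were housekeeping centring (-0.22, adjusted p = 0.0964 from limma) and the methods' t-test (adjusted p = 0.0748 from that test). PDK1, the HIF-inducible kinase, fell by 0.21 (adjusted p = 0.0408 from limma), a call lost in 12 of 20 alternatives. Among these were leaving out siCTRL replicate 1 or 3 or siHMGA1 replicate 1, 2 or 3 (adjusted p = 0.0746 to 0.106 from limma), and with the ACTB covariate PDK1 differed by -0.05. PDK3 differed by -0.03, with overlapping groups. PDK4, induced by fasting in muscle, was at 7.45, 7.01, 7.29 and 7.04 in siCTRL and 7.45, 7.42, 7.42 and 7.34 in siHMGA1, a difference of 0.21 (adjusted p = 0.115 from limma). Without siCTRL replicate 1, PDK4 was called higher (0.30, adjusted p = 0.0141 from limma).

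The PFKFB enzymes make and break the fructose bisphosphate that activates phosphofructokinase, and members of the family moved in opposite directions. PFKFB2, known from heart, had a log2 signal of 9.25, 9.15, 9.31 and 8.88 in siCTRL and 9.97, 9.98, 10.12 and 10.05 in siHMGA1. All siHMGA1 arrays lay above all siCTRL arrays, and PFKFB2 rose by 0.88, or 1.84-fold (standard error 0.0901, adjusted p = 1.74e-05 from limma). A second PFKFB2 probe set rose further, by 1.58, from 7.08 to 7.51 in siCTRL to 8.81 to 8.96 in siHMGA1, while 2 dim ones, with means under 6, differed by 0.11 and 0.31. PFKFB3, the inducible and strongly glycolytic form, fell by 0.37 (adjusted p = 0.0103 from limma), from 9.87 to 10.25 in siCTRL to 9.54 to 9.83 in siHMGA1. This fall was -0.23 without siCTRL replicates 1 and 3 (adjusted p = 0.099 from limma) and -0.15 with the ACTB covariate (adjusted p = 0.352). PFKFB4, another HIF-inducible form, differed by -0.16 (adjusted p = 0.0954 from limma).

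In the pentose phosphate pathway, 2 of 6 genes rose and 1 fell, where 15.8% of all genes were called higher and 14.7% lower. The genes that rose, TKT and TALDO1, encode the transketolase and the transaldolase that carry sugar phosphates back to glycolysis. TALDO1 rose by 0.24, or 1.18-fold (adjusted p = 0.00611 from limma), from 12.99, 12.87, 12.88 and 12.89 in siCTRL to 13.17, 13.14, 13.18 and 13.10 in siHMGA1. TKT rose by 0.23, or 1.17-fold (adjusted p = 0.0149 from limma), at 11.94 to 12.12 in siCTRL and 12.17 to 12.30 in siHMGA1. The TKT call was lost without siCTRL replicates 1 and 3 (0.20, adjusted p = 0.0733 from limma) and with the ACTB covariate (0.18, adjusted p = 0.164). It was also lost with the mean of all probe sets (0.17, adjusted p = 0.0563 from limma) and on the probe set with the highest SD (0.28, adjusted p = 0.0632). RPE, the ribulose phosphate epimerase, fell by 0.30 (adjusted p = 0.0126 from limma), from 10.57 to 10.87 in siCTRL to 10.29 to 10.52 in siHMGA1, and 2 further probe sets fell by 0.38 and 0.49. RPE was not called without siCTRL replicates 1 and 3 (-0.20, adjusted p = 0.0881 from limma), with the ACTB covariate (-0.12, adjusted p = 0.36) or after housekeeping centring (-0.18, adjusted p = 0.0707).

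The remaining pentose phosphate genes were not called. PGD, the NADPH-yielding phosphogluconate dehydrogenase, was at 8.77, 9.24, 8.89 and 9.21 in siCTRL and 9.13, 9.46, 9.27 and 9.32 in siHMGA1. The groups overlapped, with a difference of 0.27 (adjusted p = 0.094 from limma). Without siCTRL replicate 2 this PGD difference was 0.34 and passed (adjusted p = 0.0397 from limma). PGLS, the lactonase, and RPIA, the ribose phosphate isomerase, differed by 0.01 and 0.05.

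Pairs of isozymes or relatives were set against each other within each array, as the log2 ratio of their signals minus the siCTRL mean of that ratio. This shift shows unequal change and no order of levels. The groups did not overlap in 6 of 11 pairs, where single genes had groups apart in 32.6% of all cases. These pairs include SLC2A3, ENO2 and EPAS1, whose own changes are given above, so the shifts are a description and no separate evidence. The ratio of ENO1 to ENO2 shifted by 0.67 and that of HIF1A to EPAS1 by 0.54. The ratio of SLC2A1 to SLC2A3 shifted by -0.70, that of EGLN1 to EGLN3 by -0.37, that of HK1 to HK2 by -0.30 and that of LDHA to LDHB by -0.21. For PFKFB3 and PFKFB4 the shift was -0.22 and the groups overlapped, as they did for the phosphofructokinase, aldolase and PDK pairs, with shifts of -0.13 to -0.18. A constant scaling factor of an array cancels in these ratios, while a scaling that varies with the signal does not.

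**Figure D4:**
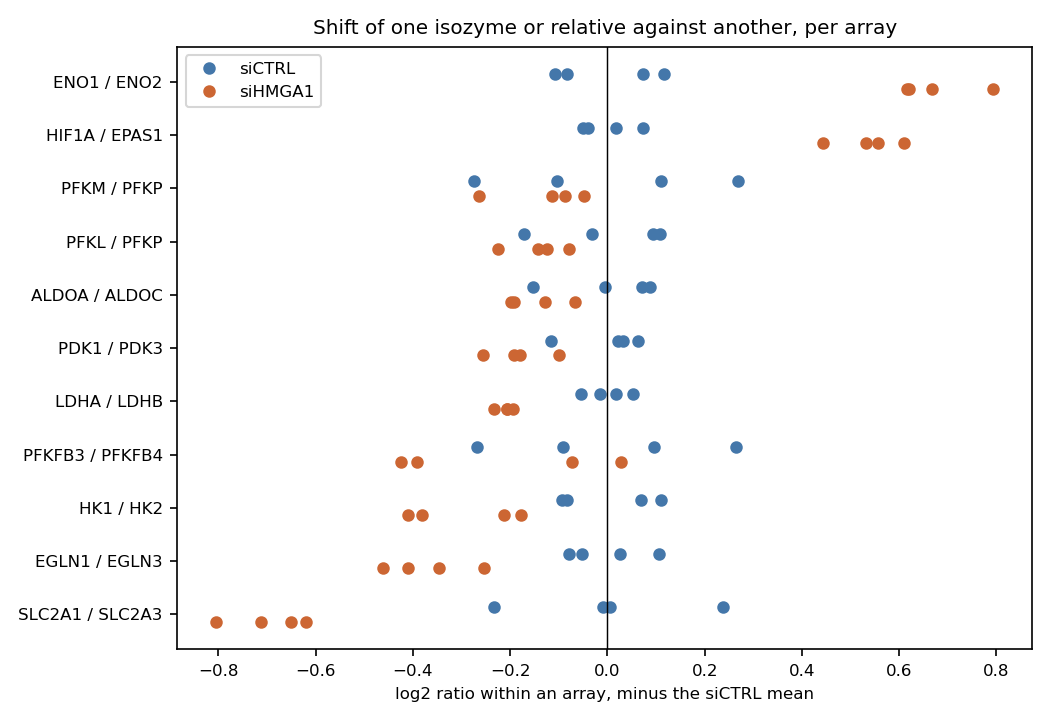
Log2 ratio of 2 isozymes or relatives within each array minus the siCTRL mean of that ratio (x axis), for 11 pairs (y axis), with a point for each of the 4 siCTRL arrays (blue) and the 4 siHMGA1 arrays (orange). ENO1 to ENO2 shifted farthest to the right, by 0.67, and SLC2A1 to SLC2A3 farthest to the left, by -0.70; in 5 pairs the groups overlap.

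A gene was represented by its probe set with the highest mean, and 27 of the 39 genes had more than 1. Their probe sets numbered 95, of which 79 had a mean of at least 6. In none (0) of the genes were probe sets called in opposite directions. The dimmer probe sets of EPAS1, VEGFA, SLC2A3 and PFKL differed less than the representative one, while PFKFB2 and RPE differed more on another probe set. Probe sets marked _s_at or _x_at can bind more than 1 transcript. Without them, 25 of the 39 genes had a value, and 6 were lower and 2 higher. TKT was left there with a dim probe set that differed by -0.0083, and VEGFA, SLC2A3, TALDO1 and PFKL had no value.

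**Figure D5:**
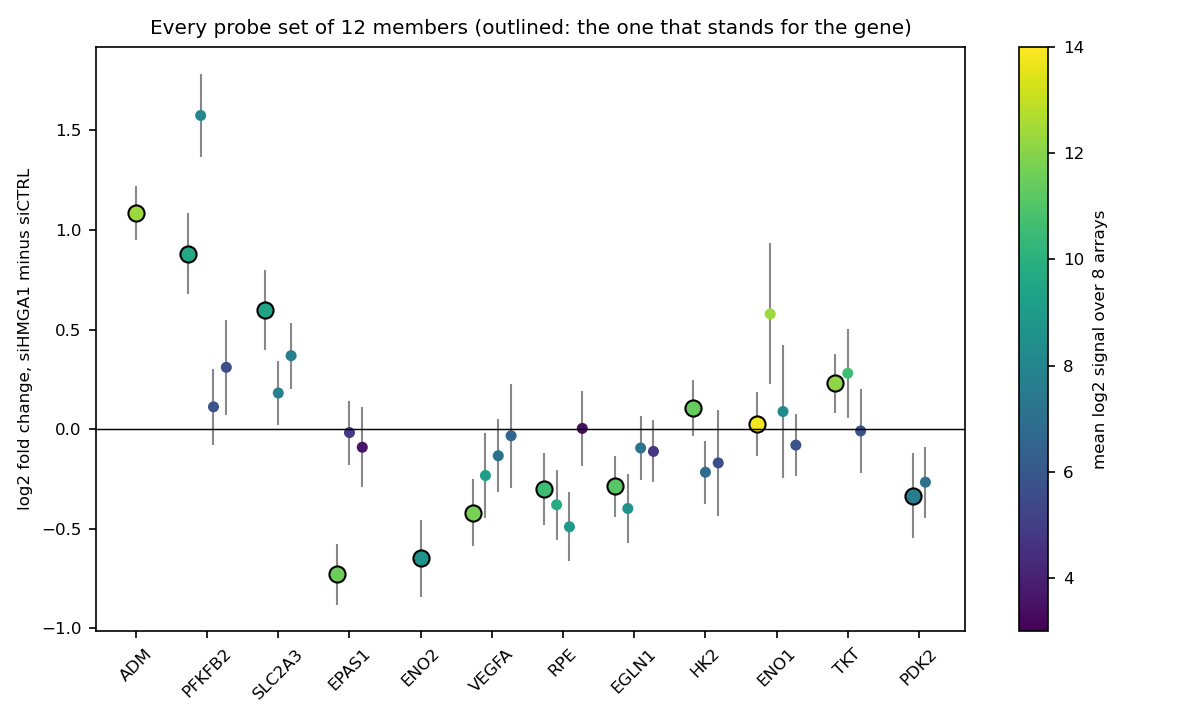
Log2 fold change (siHMGA1 minus siCTRL, y axis) of every probe set of 12 genes, with 95% intervals from limma as bars and the mean log2 signal as colour; the outlined point stands for the gene. PFKFB2 spans 0.11 to 1.58 and EPAS1 -0.73 to -0.02, with the dim probe sets nearest to 0.

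The 18 calls were not equally stable. Over all alternatives that gave a value (19 or 20 for a gene), 8 genes kept their call: EPAS1, ENO2, VEGFA and PFKL lower, and ADM, PFKFB2, SLC2A3 and TALDO1 higher. The log2 fold change over these alternatives was 1.01 to 1.20 for ADM, 0.72 to 1.58 for PFKFB2 and 0.38 to 0.84 for SLC2A3. It was -0.80 to -0.53 for ENO2, -0.76 to -0.28 for EPAS1 and -0.45 to -0.20 for VEGFA, where the smallest values of EPAS1 and VEGFA came from averaging their probe sets. The other 10 lost their call under at least 1 alternative. With the ACTB covariate, 7 of the 13 lower genes kept their call and 12 were lower in all.

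Neighbouring genes of the same pathways were counted for context. Of 34 other hypoxia-inducible genes, 10 were lower and 8 higher, with a median log2 fold change of -0.01, where 14.7% of all genes were lower and 15.8% higher. TMEM45A, a membrane protein gene, rose 2.64-fold and the circadian repressor BHLHE41 1.75-fold, while the hydroxylase JMJD6 fell by 0.71 and ANGPTL4, an inhibitor of lipoprotein lipase, by 0.54. The BHLHE41 log2 fold change was 0.08 without _s_at and _x_at probe sets. Of 18 genes that regulate HIF, 2 were lower and 6 higher. HIF1AN, the asparagine hydroxylase that blocks HIF activity, rose by 0.60 (adjusted p = 6.51e-06 from limma), and RBX1 and ELOB, parts of the ubiquitin ligase that destroys HIF alpha subunits, rose by 0.29 each. ARNT, the partner subunit of HIF1A and EPAS1, fell by 0.38 (adjusted p = 0.0117 from limma), and the chaperone gene HSP90AA1 fell by 0.27. The ARNT call was lost without siCTRL replicates 1 and 3, at -0.27, and with the ACTB covariate, at -0.16.

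Of 24 other glycolytic isozymes, transporters and gluconeogenic genes, 2 were lower and 3 higher, with a median log2 fold change of 0.01. That is 20.8% called, against 30.5% of all genes. ADPGK, an ADP-dependent glucokinase, was the exception in size. It read 10.08, 10.07, 9.90 and 10.03 in siCTRL and 8.49, 8.52, 8.38 and 8.47 in siHMGA1, and it fell by 1.56, to a fold of 0.34 (standard error 0.0625, adjusted p = 2.74e-08 from limma). On the representative probe sets this was larger than any change among the 39 genes. PCK2, the mitochondrial carboxykinase of gluconeogenesis, rose by 0.45, and the transporters SLC2A12 and SLC2A10 differed by -0.44 and 0.41 with overlapping groups. SLC2A10 was dim, with a mean of 4.69. Of 8 other pentose and ribose genes, 4 fell and 1 rose, or 62.5% called against 30.5% of all genes. PRPSAP1, which binds the synthetase of ribose pyrophosphate, fell by 0.69, SHPK, a sedoheptulose kinase, by 0.61 and H6PD, the pentose pathway enzyme of the endoplasmic reticulum, by 0.40, while the ribokinase RBKS rose by 0.46. SHPK was dim, with a mean of 5.89.

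Glycogen and mitochondrial genes that share substrates with glycolysis also held large falls. Of 13 glycogen genes, 6 were lower and 2 higher, or 61.5% called against 30.5% of all genes. GYS1, the glycogen synthase of muscle and most tissues, was at 8.12, 8.38, 8.21 and 8.11 in siCTRL and 6.82, 7.12, 7.02 and 7.02 in siHMGA1, a fall by 1.21, to a fold of 0.431 (standard error 0.0821, adjusted p = 7.65e-07 from limma). UGP2, which makes the glucose donor for glycogen, fell by 0.52 but differed by -0.08 without _s_at and _x_at probe sets. PPP1R3B, a glycogen-targeting phosphatase subunit, fell by 0.35, while its relative PPP1R3D rose by 0.24 and the glycogen primer GYG1 by 0.36. Of 22 genes of pyruvate dehydrogenase and the citric acid cycle, 4 were lower and 6 higher, or 45.5% called. SDHD, an anchor subunit of succinate dehydrogenase, fell by 1.20 (adjusted p = 3.32e-07 from limma), from 11.56 to 11.69 in siCTRL to 10.30 to 10.56 in siHMGA1, and by 0.58 with its probe sets averaged. Pyruvate carboxylase, PC, fell by 0.58, while DLST rose by 0.32 and the pyruvate carrier gene MPC2 by 0.29.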

How the data were processed

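The authors deposited a log2 signal per probe set and array (8 arrays), made with RMA (background correction, quantile normalisation and summarisation per probe set). Versions of RMA and of affy, both named in the submitters' processing notes, are not given in the sources used here. RMA removes differences in total signal between arrays, compresses low signals, and keeps no scanner intensities, so precision is limited by how many arrays there are. Array medians were 6.073 to 6.122.

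Of 54675 probe sets, 62 were controls, 41091 had a single gene name in the platform annotation, 1801 had several and 11721 had none. Only probe sets with a single gene name were used, and 0 pairs of arrays were identical. Each gene was represented by its brightest probe set (mean of all arrays), which gave 19775 genes, and 54 identifiers had no match in RefSeq.

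siHMGA1 was compared with siCTRL by limma (version 3.58.1, R 4.3.3) and p-values were adjusted by Benjamini-Hochberg across the 19775 genes. The 42 genes, the context lists and the tests were chosen with earlier results of these data known. Genes called with a log2 fold change of at least 0.5 are given in full, other genes by value or range, and up to 4 genes per context list with the largest called change, up to 2 of the opposite direction, are named. VEGFA, LDHA, PKM, PDK4, TALDO1 and PGD were given per array after their values had been seen. Housekeeping genes (7 measured, 2 lower and 1 higher), 5 mesenchymal and 5 luminal markers (1 and 0 lower, 2 and 1 higher) were counted too.

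The steps were checked on simulated data for this comparison with 200 of 19775 genes changed. At a log2 change of 0.25, 7 of 50 genes were called by limma, with 34 of 50 at 0.5, 49 of 50 at 1 and 50 of 50 at 2, and 4 of 19575 unchanged genes. In the data 30.5% of genes were called, so the adjustment of p-values was stricter in the simulation. The simulated recovery of small changes therefore does not carry over to the data. The alternatives were other ways to represent a gene, other scalings and fits, the methods' t-test, the replicate number as a block, and leaving out arrays.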

Additional observations from a re-analysis of the deposited data

Results flagged for a closer look

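Outlying arrays were looked for in each group of 4 arrays, for the 39 genes and HMGA1, which gave 80 groups. In 1 of them an array stood apart by Dixon's criterion at 95%. In siCTRL, TALDO1 had a log2 signal of 12.99 in replicate 1, while the other 3 arrays lay between 12.87 and 12.89. Chance alone flags about 1 in 20 groups. TALDO1 stayed higher in siHMGA1 than in siCTRL replicate 1 in all 4 arrays.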

How the results depend on the processing

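The counts of 13 lower and 5 higher genes moved by over 1.5 times under 2 of the alternatives. Without _s_at and _x_at probe sets there were 6 lower and 2 higher genes, of 25 with a value. With centring on housekeeping genes there were 6 lower and 10 higher. The shares of all genes called under the alternatives are not given here. Leaving out 1 array at a time gave 10 to 12 lower and 5 to 6 higher genes, and an HMGA1 log2 fold change of -2.50 to -2.34. HMGA1 had no value without _s_at and _x_at probe sets and kept its direction and call under the other alternatives. The sign of the log2 fold change turned under at least 1 alternative in 14 genes, 13 of which were not called. In 1 case the turned value passed: PDK3, from -0.03 to 0.27 on its probe set with the highest SD (adjusted p = 0.0203 from limma). The called gene was TKT, from 0.23 to -0.0083 on the dim probe set left without _s_at and _x_at ones (adjusted p = 0.967 from limma). The cause was not tested. The genes whose call was lost most often were PDK1, in 12 of 20 alternatives, and HK1, in 10.

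With the replicate number as a block there were 11 lower and 6 higher genes and HMGA1 was again at -2.42. HK1 and PDK1 lost their call and PGD gained one. The sample titles give the same experiment numbers in both groups, but do not say that a number marks a shared culture or day. In PKM, GPI and TPI1 the same replicates were low in both groups, as given above. Deviations of same-numbered arrays correlated at 0.0664, 0.269, 0.107 and -0.123, and not every array correlated best with its own number, so the numbers were not taken to pair the arrays. Signal over background limits the dim probe sets: 79 of 95 had a mean of at least 6.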
